A study of Mus musculus with 70 samples.

Results

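The libraries described here are the 8 adult-titled microglial libraries of the Jung Cx3cr1CreERT2 line, 4 from mice given tamoxifen (TAM) and 4 from mice given the corn oil vehicle, out of 70 libraries in the series. They were chosen by their sample titles, which also fixed the 2 groups. The series asks how induction of the CreERT2 recombinase affects microglia in mice that carry it at the Cx3cr1 locus, in 2 lines (Jung and Littman), at several ages and with or without a microglia-depleting drug. Brains were perfused, and each library began with 500 sorted cells (CD11b+ CD45+, without Ly6G and CD206) in 30 µL of lysate, of which 15 µL entered the CEL-Seq2 protocol, a 3′ RNA-seq method with molecular identifiers.

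The TAM libraries came from mice with the genotype Cx3cr1CreERT2(Jung) Hetero that received intraperitoneal tamoxifen, 4 mg per injection on repeated injections per the protocol for adults. The oil libraries came from mice of the same genotype, so both groups carry 1 copy of the Cre transgene and neither is free of it. Microglia and other cells that use the Cx3cr1 promoter make the recombinase in both groups. The protocols give adult mice an age of 6 to 15 weeks. No floxed target or reporter allele is named for these mice, whereas the BLZ-titled Jung mice also have Rosa26YFP Hetero.

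The labels disagree on one point. The titles call these libraries adult, while their treatment labels read BLZ945+TAM and BLZ945+Oil. BLZ945 is an inhibitor of CSF1R, the receptor on which microglia depend for survival, and its withdrawal is followed by microglial repopulation. The BLZ-titled Jung libraries carry the reverse mismatch, with treatment labels of TAM and Oil alone. The contrast of tamoxifen with oil is the same under either reading, but the state of the cells in which it was made is not settled by the labels.

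CreERT2 is Cre recombinase fused to a mutated oestrogen receptor domain. It stays in the cytoplasm until tamoxifen metabolites bind it, then enters the nucleus and recombines loxP sites. Nuclear Cre can also cut chromosomal DNA at sites that resemble loxP; in many cell types DNA breaks activate p53, which raises Cdkn1a, the gene of the cell cycle inhibitor p21, and DNA in the cytosol can start a type I interferon response. Cx3cr1 encodes the fractalkine receptor and is a defining gene of microglia.

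The TAM libraries held 284160 to 304794 counts and the oil libraries 274120 to 303775, and each library detected 12265 to 12762 genes. No label says that replicates of a group came from separate animals, so p-values measure the spread between these samples, which may be technical. Xist counts and counts of Y-linked genes placed replicates 1 and 2 as male and replicates 3 and 4 as female in both groups.

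TAM replicate 1, oil replicate 1 and oil replicate 3 stood apart from the other 5 libraries. Their scores on the first principal component, which held 35.8% of the variance, were 23.95 for TAM replicate 1, 15.7 for oil replicate 1 and 17.7 for oil replicate 3, and the other 5 libraries lay below 0. Gene models annotated as TEC (transcripts whose existence awaits experimental proof) took 1.79, 0.882, 0.850 and 0.928% of counts in TAM replicates 1 to 4, against 1.49, 1.03, 1.76 and 0.801% in oil replicates 1 to 4. Most of these models lie in introns: 761 of 1280 fell inside an intron of a protein-coding gene on the same strand, and they held 70.3% of the TEC counts. Ribosomal protein genes went the other way, at 1.36, 2.36, 2.29 and 2.37% in TAM replicates 1 to 4 against 1.58, 2.10, 1.61 and 2.63% in oil replicates 1 to 4. The 3 libraries were thus high in intronic counts and low in ribosomal protein transcripts. Across 11 such library measures the TAM and oil groups gave exact two-sided permutation p from 0.457 to 1.00, where 4 against 4 libraries cannot go below 0.0286. For some genes and for counts of calls the result without the 3 libraries is also given. List medians and the other genes are given with all libraries only.

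**Figure D1:**
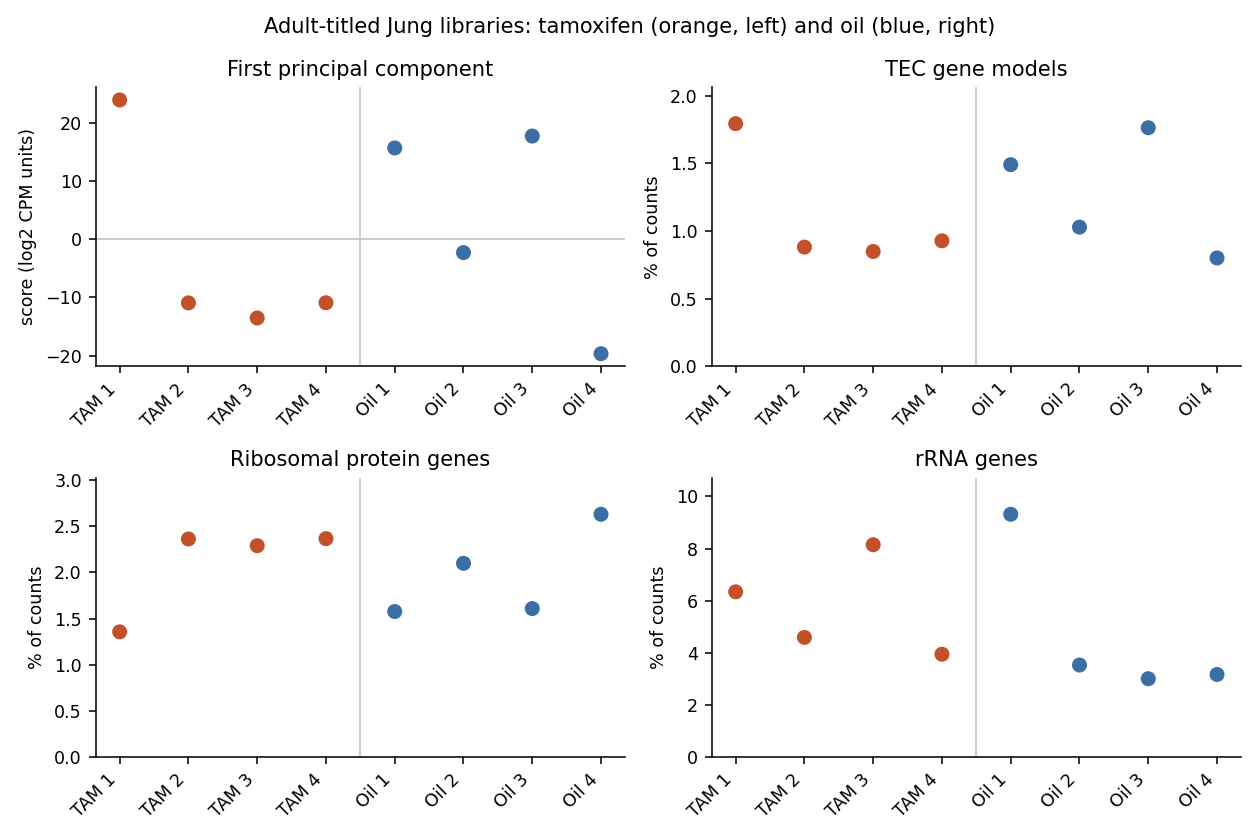
First principal component score (log2 CPM units) and the share of each library's counts (%) in TEC gene models, ribosomal protein genes and rRNA genes, for TAM replicates 1 to 4 (orange) and oil replicates 1 to 4 (blue). TAM 1, oil 1 and oil 3 had positive scores, the highest TEC shares and the lowest ribosomal protein shares.

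Tamoxifen left no gene past the threshold in these adult-titled Jung microglia. Of 5111 genes with enough counts to test, 0 passed an adjusted p of 0.05 in edgeR's quasi-likelihood test (0% called), and the smallest adjusted p was 1.00. At an unadjusted p under 0.05 there were 113 genes, 2.21% of those tested. DESeq2 called 0 genes, with 90 at an unadjusted p under 0.05, and limma-voom called 0, with 113. Log2 fold changes of TAM over oil were split into 2563 positive and 2548 negative, with a median of 0.00088. TAM and oil values did not overlap in 102 genes, 2.00% of those tested.

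The precision of these fold changes depended on abundance. The 95% interval lay within 2-fold in either direction for 4197 of the 5111 genes, or 82.1%, and within 1.5-fold for 1089. Of the 2118 genes averaging at least 100 CPM (counts scaled by library total and TMM factor), 2056 lay within 2-fold. All 240 genes averaging at least 500 CPM lay within 2-fold and 207 of them within 1.5-fold. These bounds say how large a change the data leave possible, not the smallest that could be detected. The biological coefficient of variation between libraries was 19.8%.

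**Figure D2:**
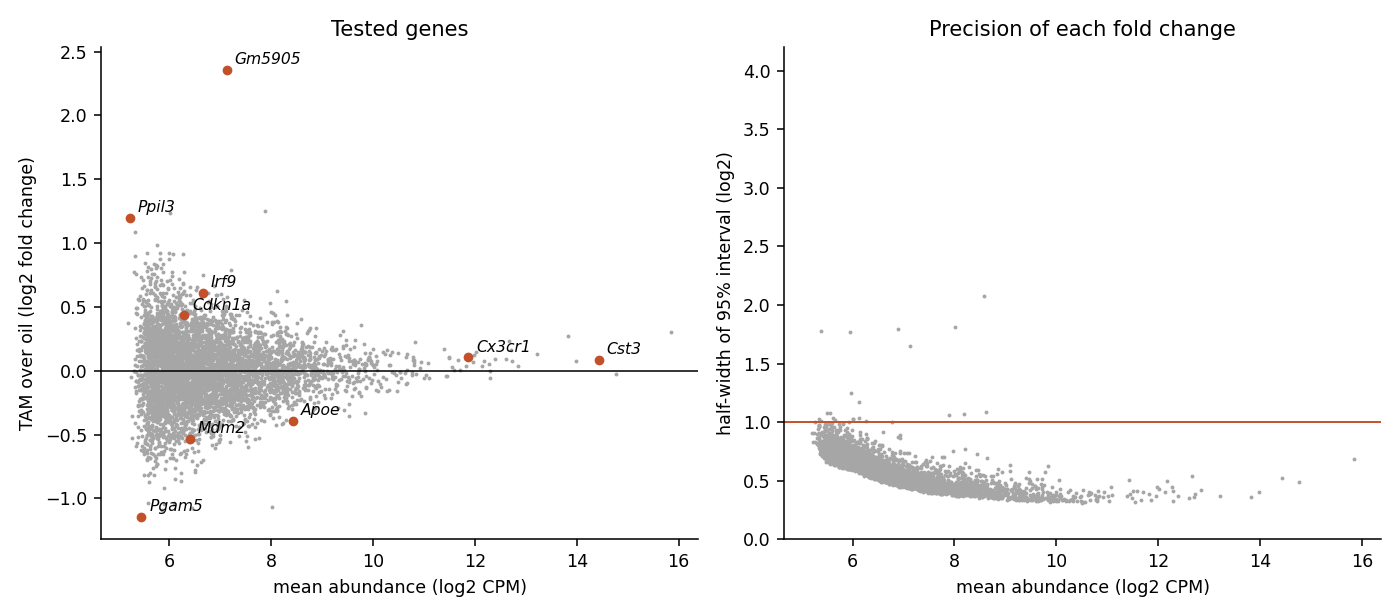
Left, log2 fold change of TAM over oil against mean abundance (log2 CPM) for the 5111 tested genes, with 9 named genes in orange. Right, half-width of the 95% interval of each fold change (log2) against mean abundance, with the line at a 2-fold change; 4197 of the intervals lay wholly within 2-fold.

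Cdkn1a (GRCm38 chr17:29090976-29100727, plus strand), which encodes p21 and is the standard readout of p53 activity, was not called. It had 48.8, 109.9, 113 and 54.1 CPM in TAM replicates 1 to 4, against 52.5, 74.8, 42.9 and 70.6 CPM in oil replicates 1 to 4. TAM replicates 2 and 3 were above every oil library, and TAM replicates 1 and 4 lay inside the oil range. The means were 81.5 ± 34.7 CPM in TAM and 60.2 ± 15.0 CPM in oil (SD, n = 4 each). The log2 fold change was 0.43 ± 0.322 (SE), with a 95% interval of -0.24 to 1.103 and an unadjusted p of 0.189 in edgeR. On the linear scale that is 1.35-fold, with an interval of 0.849 to 2.15. Over all alternatives the log2 fold change stayed between 0.23 and 0.62.

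Mdm2 (GRCm38 chr10:117688875-117710758, minus strand), the ubiquitin ligase that p53 induces and that in turn degrades p53, had the opposite sign. It had 75.1, 54.9, 50.7 and 69.5 CPM in TAM replicates 1 to 4, against 82.5, 96.2, 82.2 and 104 CPM in oil replicates 1 to 4. The groups did not overlap, and every TAM library was below every oil library. The log2 fold change was -0.53 ± 0.258 (SE), with a 95% interval of -1.07 to 0.0014, an unadjusted edgeR p of 0.0486 and an adjusted p of 1.00. Without TAM replicate 1 and oil replicates 1 and 3 it was -0.77, also not called.

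Fold changes of p53 targets had both signs. Of 25 listed targets 8 could be tested, Cdkn1a and Mdm2 included, 3 with a positive and 5 with a negative fold change, and their median log2 fold change was -0.06 against 0.00088 over all tested genes; 0 were called. Bax, which opens the mitochondrial outer membrane in apoptosis, had 71.4, 58.9, 50.7 and 57.9 CPM in TAM replicates 1 to 4, against 52.5, 53.4, 35.8 and 49.8 CPM in oil replicates 1 to 4 (log2 0.32). Of these TAM values 3 were above every oil value. Sesn1, a stress-induced inhibitor of mTORC1 signalling, had a log2 fold change of -0.32, and Btg2, an antiproliferative gene, of 0.08. Ddit4, another mTORC1 inhibitor, had 143, 153, 195 and 189 CPM in TAM replicates 1 to 4, against 75.0, 463, 182 and 257 CPM in oil replicates 1 to 4. The TAM libraries lay inside the oil range, which was set by oil replicates 1 and 2, at a log2 fold change of -0.53 (interval -1.23 to 0.18). Without oil replicate 2 alone it was -0.0010, and without the 3 libraries that stood apart -1.02, at an adjusted edgeR p of 0.679. Zmat3, another p53 target, had 11, 5, 0 and 2 counts in TAM replicates 1 to 4 and 3, 3, 4 and 1 in oil replicates 1 to 4, too few to test.

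**Figure D3:**
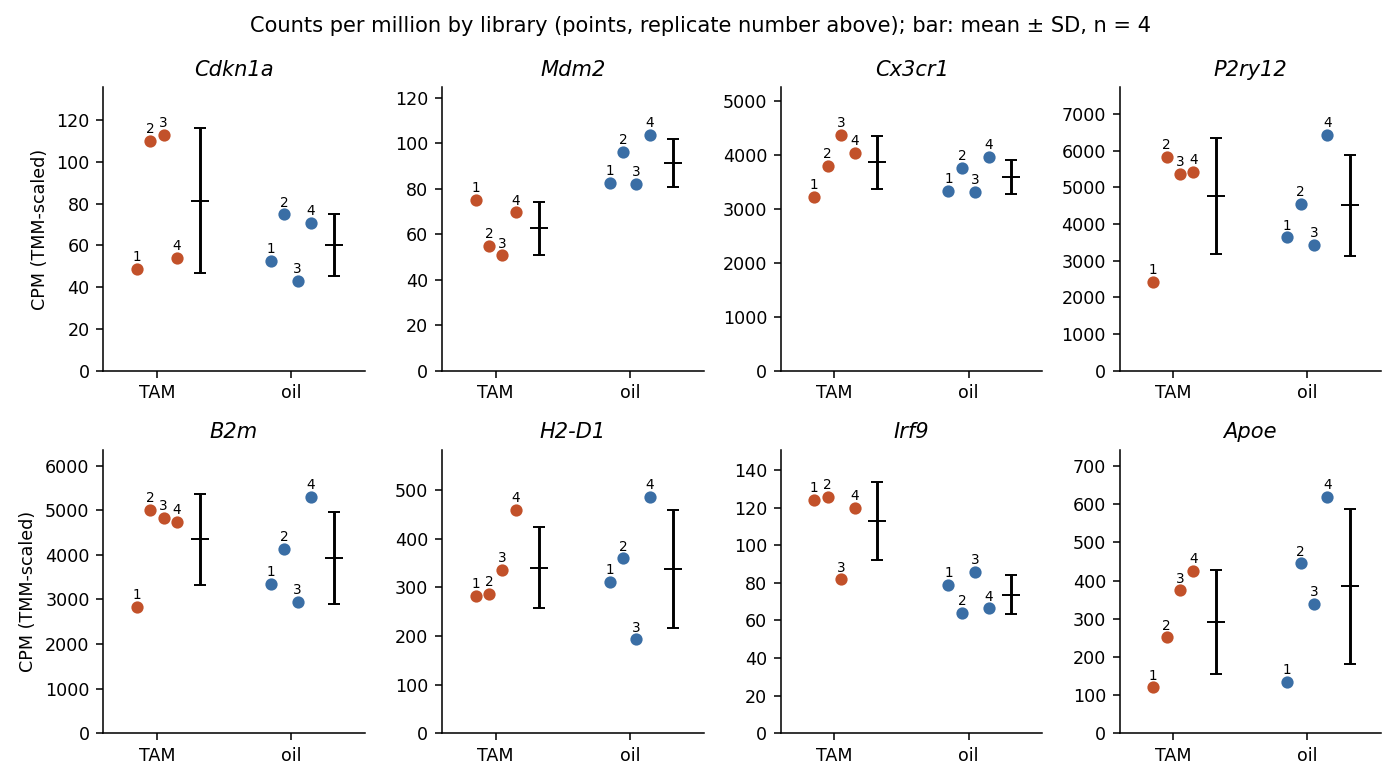
CPM of 8 genes in each TAM library (orange) and oil library (blue), with replicate numbers above the points and bars for the mean ± SD (n = 4 each). The groups overlap for all but Mdm2, which was lower in every TAM library than in every oil library.

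Genes of DNA damage sensing and repair could be tested for 5 of 22 members, 2 positive and 3 negative, with a median log2 fold change of -0.06 and 0 called. Atm, the kinase that responds to double-strand breaks, had a log2 fold change of -0.06 with an interval of -0.90 to 0.77. Parp1, which marks breaks with ADP-ribose, had -0.34, and Brca2, a recombination mediator, 0.43. Of 34 cell cycle genes 9 were tested, with a median of 0.06 and 0 called. Cdk6, a partner of the D cyclins, had 222, 188, 187 and 143 CPM in TAM replicates 1 to 4, against 263, 228, 232 and 245 CPM in oil replicates 1 to 4 (log2 -0.39, interval -0.79 to 0.02). Every TAM value was below every oil value, at an unadjusted edgeR p of 0.0605. Cdk2, the kinase that p21 inhibits at the entry to S phase, had a log2 fold change of 0.73 with an interval of -0.05 to 1.51. Proliferation markers were near the floor: Top2a had 0, 11, 0 and 0 counts in TAM replicates 1 to 4 and 14, 4, 0 and 1 in oil replicates 1 to 4, and Mki67 had at most 3 counts in any library.

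Most type I interferon response genes were near the detection limit in both groups. Of 35 listed genes 8 could be tested, 5 positive and 3 negative, with a median log2 fold change of 0.06 and 0 called. The effector genes were among those with too few counts. Ifitm3, an antiviral membrane protein, had 6, 2, 1 and 7 counts in TAM replicates 1 to 4 and 2, 1, 3 and 3 in oil replicates 1 to 4. Cxcl10, an interferon-induced chemokine, had 5 counts in TAM replicate 2 and 0 in the other 7 libraries.

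Irf9, the DNA-binding subunit of the complex that carries interferon signals to the nucleus, had the highest fold change of the list. It had 124, 125.6, 81.9 and 119.7 CPM in TAM replicates 1 to 4, against 78.8, 64.1, 85.8 and 66.4 CPM in oil replicates 1 to 4. TAM replicates 1, 2 and 4 were above every oil library and TAM replicate 3 lay inside the oil range. The log2 fold change was 0.61 ± 0.247 (SE), 1.52-fold, with an unadjusted edgeR p of 0.0215 and an adjusted p of 1.00. Both cytosolic RNA sensors of the list that could be tested had negative fold changes, Ifih1 at -0.64 and Ddx58 at -0.53 on the log2 scale. Bst2 and Lgals3bp, abundant interferon-responsive genes, were at 0.05 and 0.10. The 11 tested interferon pathway components (receptors, kinases and IRF factors) had a median log2 fold change of 0.01, and all 11 intervals lay within 2-fold.

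MHC class I genes, which present cytosolic peptides and respond to interferon, were tested for 14 of 19 members. Their fold changes were positive in 12 and negative in 2, with a median log2 fold change of 0.16 against 0.00088 over all tested genes; 0 were called and 12 intervals lay within 2-fold. B2m, the shared light chain, had 2825, 5008, 4823 and 4739 CPM in TAM replicates 1 to 4, against 3354, 4139, 2939 and 5293 CPM in oil replicates 1 to 4 (log2 0.15, interval -0.29 to 0.58). TAM replicate 1 and oil replicates 1 and 3, the libraries with high intronic shares, were the 3 lowest; the part of that library property in the B2m values was not tested. H2-D1, a heavy chain, had 282, 286, 335 and 459.6 CPM in TAM replicates 1 to 4, against 311, 359.8, 193 and 486 CPM in oil replicates 1 to 4. The oil range enclosed all 4 TAM values, at a log2 fold change of 0.02 ± 0.240 (SE; interval -0.48 to 0.52). H2-K1, the other classical heavy chain, had a log2 fold change of 0.10, and Tap1, a subunit of the peptide transporter, 0.60 with an interval of -0.12 to 1.32. H2-D1, H2-K1 and their relatives are similar in sequence, and the sources used here do not say how the authors counted reads that match several genes, so their single values are uncertain.

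Counts of 2 MHC class II genes, which are low in resting microglia, came almost wholly from TAM replicates 3 and 4. H2-Aa, a class II alpha chain, had 0, 0, 7 and 37 counts in TAM replicates 1 to 4 and 0 in each of the 4 oil libraries. H2-Eb1, a class II beta chain, had 1, 0, 5 and 24 counts in TAM replicates 1 to 4, also against 0 in each oil library. Most of these counts came from TAM replicate 4, the rest from TAM replicate 3 apart from 1 count, so the difference does not extend to the whole TAM group. Against a floor of 3 counts set for the summed oil libraries, the summed TAM libraries were 14.8-fold higher for H2-Aa and 10.1-fold higher for H2-Eb1. These folds rest mainly on TAM replicate 4 and leave out the spread between libraries. Both were under the count filter of the main test, and both were called when the filter was dropped. H2-Ab1, the other classical class II gene listed, had 0, 3, 5 and 7 counts in TAM replicates 1 to 4 against 2, 4, 2 and 2 in oil replicates 1 to 4.

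Mrc1 and Ccr2, markers of other myeloid cells chosen after their values were seen, had at most 6 and 5 counts in a library. The highest was in TAM replicate 4 for Mrc1 and in TAM replicate 3 for Ccr2. Mrc1, the gene of the CD206 antigen used to exclude border macrophages, had 0, 0, 2 and 6 counts in TAM replicates 1 to 4 and 2, 2, 0 and 0 in oil replicates 1 to 4. Ccr2, a monocyte chemokine receptor, had 0, 1, 5 and 2 counts in TAM replicates 1 to 4 and 1, 1, 0 and 1 in oil replicates 1 to 4. TAM replicate 4 had the highest summed level of the border macrophage markers, 216 CPM with 5 of 10 markers detected. TAM replicate 3 had the highest of the monocyte markers, 27.3 CPM with 2 of 11 detected. Neither was high on both lists: border macrophage markers summed to 85.8 CPM in TAM replicate 3 and monocyte markers to 11.6 CPM in TAM replicate 4. TAM replicate 1, with 0 counts of H2-Aa, had 199 CPM of border macrophage markers, with 1 detected, and 15.0 CPM of monocyte markers, with 3 detected. Oil replicate 4 had 129 CPM of border macrophage markers, with 4 detected, and 24.9 CPM of monocyte markers, with 3 detected. H2-Aa and H2-Eb1 had 0 counts in the oil group. The part of other myeloid cells in the class II counts was not tested. Among the 4 testable class II list members, H2-DMa, which helps load peptides, had 116, 184, 222 and 282 CPM in TAM replicates 1 to 4, against 105, 125, 111 and 212 CPM in oil replicates 1 to 4. Its log2 fold change was 0.55 with an interval of -0.01 to 1.11, and the groups overlapped. TAM replicate 1 lay below oil replicates 2 and 4, and TAM replicate 2 below oil replicate 4.

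Genes that define homeostatic microglia were abundant in every library and similar in TAM and oil. Of 32 listed genes 31 were tested, 21 positive and 10 negative, with a median log2 fold change of 0.08 and 0 called; all 31 intervals lay within 2-fold and 26 within 1.5-fold. Cx3cr1, the locus of the transgene, had 3219.7, 3799, 4374 and 4036 CPM in TAM replicates 1 to 4, against 3328, 3761, 3308 and 3956 CPM in oil replicates 1 to 4. The ranges overlapped, with means of 3857 ± 486 CPM in TAM and 3588 ± 322 CPM in oil (SD, n = 4 each) and a log2 interval of -0.23 to 0.44. All mice carry the knock-in allele, and the sources used here do not say whether its transcript is counted as Cx3cr1.

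P2ry12, the purinergic receptor lost on microglial activation, had 2427, 5828, 5365 and 5430.0 CPM in TAM replicates 1 to 4, against 3632, 4541, 3433 and 6439 CPM in oil replicates 1 to 4 (log2 0.08, interval -0.42 to 0.58). The lowest values were those of TAM replicate 1 and oil replicates 1 and 3. Csf1r, the target of BLZ945, had 5046, 5070.4, 4647 and 5361 CPM in TAM replicates 1 to 4, against 4506, 5005, 5446 and 5202 CPM in oil replicates 1 to 4, with a log2 interval of -0.33 to 0.33. Tmem119, a microglial surface protein, had a log2 fold change of 0.23 with an interval of -0.19 to 0.64. In bulk libraries, fewer cells of a type and less RNA per cell cannot be told apart.

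Transcription factors of microglial identity were likewise close to 0. Of 19 listed, 16 were tested, with a median log2 fold change of -0.04, 0 called and all 16 intervals within 2-fold. Sall1, which maintains microglial identity, had 763, 455, 452 and 440.3 CPM in TAM replicates 1 to 4, against 604, 506, 733 and 482 CPM in oil replicates 1 to 4 (log2 -0.14). Its highest values were in the 3 libraries that stood apart, the reverse of P2ry12. Irf8, required for microglial development, had a log2 fold change of 0.11. Jun, an immediate early factor, had 207, 255, 218 and 232 CPM in TAM replicates 1 to 4, against 176, 178, 161 and 195 CPM in oil replicates 1 to 4. Every TAM value of Jun was above every oil value, at a log2 fold change of 0.36 (interval -0.03 to 0.75) and an unadjusted edgeR p of 0.0683. The list of immediate early and dissociation-induced genes that holds Jun had a median of 0.08 over 13 tested members, with 0 called.

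Lysosomal genes were tested for 29 of 31 members, with a median log2 fold change of 0.05, 0 called and 28 intervals within 2-fold. Ctsd, an aspartic protease of the lysosome, had a log2 fold change of 0.11 and an interval of -0.24 to 0.46. Phagocytosis and complement genes had a median of 0.07 over 19 tested members, all with intervals within 2-fold; C1qa, a chain of the complement initiator C1q, had 0.12. Genes of disease-associated microglia had a median of 0.05 over 16 tested members, with 0 called. Trem2, the receptor that drives that state, had a log2 fold change of 0.07 with an interval of -0.40 to 0.54. Lyz2, lysozyme, was the highest of that list at 0.44 and Apoe the lowest.

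Apoe, a lipid carrier that LXR induces, varied widely among libraries. It had 120.2, 251, 374 and 425 CPM in TAM replicates 1 to 4, against 135, 445, 339.7 and 619 CPM in oil replicates 1 to 4. TAM replicate 1 and oil replicate 1 were the lowest of their groups, and the groups overlapped. The log2 fold change was -0.39 ± 0.348 (SE; interval -1.12 to 0.33). With 1 library left out it ran from -0.67 without oil replicate 1 to -0.07 without oil replicate 4, and it was -0.13 without TAM replicate 1. With the TEC share as a covariate it was -0.63, and without the 3 libraries that stood apart -0.60; it was not called in any of these fits. The 12 tested genes of cholesterol synthesis and LXR signalling had a median log2 fold change of -0.06, with 3 positive and 9 negative; Srebf1, a lipogenic transcription factor, was the lowest at -0.59.

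Oestrogen-responsive genes were listed because tamoxifen also binds the natural oestrogen receptors. Of 20, 10 were tested, 9 positive and 1 negative, with a median log2 fold change of 0.08 and 0 called. Nrip1, a receptor corepressor, was the negative one at -0.26, and Ncoa2, a coactivator, was the highest at 0.48. Inflammatory cytokine and NF-kB genes had a median of 0.18 over 8 tested members, of which 7 were positive and 0 called. Rela, an NF-kB subunit, had a log2 fold change of 0.51 and Il1a, a cytokine, 0.48. Mitochondrially encoded mRNAs, oxidative stress genes and unfolded protein response genes had medians of 0.01, 0.07 and 0.06, with 0 called in each.

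**Figure D4:**
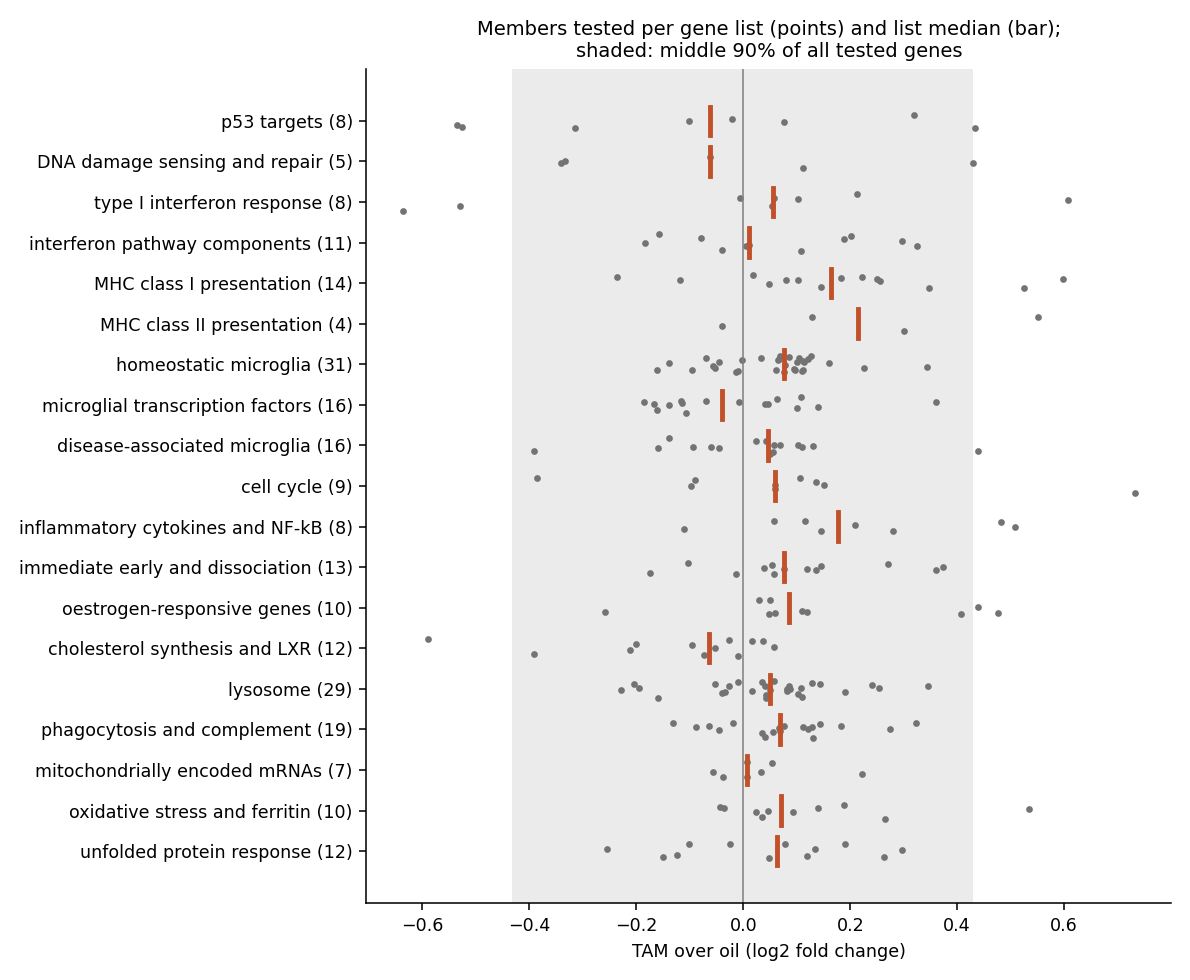
Log2 fold change of TAM over oil for every tested member of 19 gene lists (grey points; number tested in parentheses), with the list median as an orange bar and the middle 90% of all tested genes shaded. List medians lay between -0.06 and 0.21, and 0 members were called.

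Summed levels of each list of other-cell markers overlapped between groups. Border macrophage markers summed to 70.6 to 216 CPM in TAM and 129 to 186 CPM in oil, of which Stab1 made up 158 of 216 CPM in TAM replicate 4 and all of it in TAM replicate 1, while Lyve1, Cd163, F13a1 and Folr2 were at 0 in all 8 libraries. Monocyte markers summed to 7.85 to 27.3 CPM in TAM and 3.58 to 24.9 CPM in oil, with Ly6c2, Plac8 and Chil3 at 0. Neutrophil markers summed to 402 to 541 CPM in TAM and 381 to 644 CPM in oil through Csf3r, a receptor gene that microglia also express, while S100a8 and S100a9 were at 0. Lymphocyte markers summed to 274 to 542 CPM in TAM and 319 to 506 CPM in oil, with Ighm the tested member and Cd3e at 0. Astrocyte markers summed to 371 to 476 CPM in TAM and 365 to 544 CPM in oil, with Slc1a3 the tested member and Gfap at 0. Endothelial and mural markers summed to 248 to 289 CPM in TAM and 180.1 to 386 CPM in oil, with Bsg the tested member and Cldn5 at 0. Oligodendrocyte lineage markers summed to 77.2 to 210.4 CPM in TAM and 125 to 193 CPM in oil. Erythroid markers summed to 0 to 67.6 CPM in TAM, the highest in TAM replicate 1, and 0 to 11.3 CPM in oil. Neuron markers summed to 34.8 to 45.1 CPM in TAM and 18.8 to 54.0 CPM in oil.

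The genes with the largest fold changes at an unadjusted p under 0.05 were mostly of low abundance, and none was called. Ppil3, a spliceosome-associated peptidyl-prolyl isomerase, had 37.6, 39.2, 42.9 and 46.3 CPM in TAM replicates 1 to 4, against 26.3, 10.7, 10.7 and 24.9 CPM in oil replicates 1 to 4. Every TAM library was above every oil library, at a log2 fold change of 1.196 ± 0.398 (SE; interval 0.37 to 2.02, unadjusted edgeR p 0.00492). Mospd3, Tomm22, a receptor of the mitochondrial import complex, and Yipf3, a Golgi protein, had log2 fold changes of 1.09, 0.98 and 0.92. Pgam5, a mitochondrial phosphatase, had 15.0, 19.6, 31.2 and 23.2 CPM in TAM replicates 1 to 4, against 45.03, 46.3, 53.6 and 54.0 CPM in oil replicates 1 to 4. The groups did not overlap, at a log2 fold change of -1.14 ± 0.353 (SE; interval -1.88 to -0.41, unadjusted edgeR p 0.00286).

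Ikzf2, the transcription factor Helios, had 52.6, 31.4, 27.3 and 15.4 CPM in TAM replicates 1 to 4, against 71.3, 71.2, 64.4 and 66.4 CPM in oil replicates 1 to 4, a log2 fold change of -1.09. The 4 oil libraries were close together and all above the 4 TAM libraries. Polg, the mitochondrial DNA polymerase, and Ndufa2 and Ndufa8, subunits of respiratory complex I, had log2 fold changes of -1.04, -1.04 and -0.85. With 113 genes at an unadjusted p under 0.05 among 5111, fewer than 1 in 20 of the tested genes, these genes are given as values only.

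A few genes differed between libraries far more than between treatments. The sex genes Xist and Ddx3y led this ranking. Gm5905, a processed pseudogene (GRCm38 chr7:141177885-141178464, minus strand), had 710.1, 47.1, 62.4 and 61.8 CPM in TAM replicates 1 to 4, against 7.50, 17.8, 28.6 and 125 CPM in oil replicates 1 to 4. Its log2 fold change of 2.36 ± 0.791 (SE) rested on TAM replicate 1: it was 0.41 without that library and -0.25 without the 3 libraries that stood apart. As a processed pseudogene it may share reads with its parent gene.

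The same contrast was set beside 3 other sets of the series, to see where the adult-titled Jung response differs. Adult Littman was fitted on its own libraries. BLZ-titled Jung was fitted together with BLZ-titled Littman, and postnatal Jung together with the postnatal Littman libraries. In these joint fits the count filter, scaling and variance estimates draw on both lines. For Cdkn1a the log2 fold change of TAM over oil was 0.43 in adult-titled Jung, 0.30 in BLZ-titled Jung (interval -0.55 to 1.16), 0.90 in postnatal Jung (interval 0.45 to 1.36, adjusted edgeR p 0.173) and 1.66 in adult Littman (interval 1.16 to 2.17, adjusted edgeR p 0.00905). In adult Littman it was the 1 gene called of 5512 (0.0181%), and in postnatal Jung 6 of 7076 genes were called (0.0848%), among them H2-D1; BLZ-titled Jung had 0 calls among 5163 (0%), with 287 at an unadjusted edgeR p under 0.05.

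The differences themselves were tested in joint fits. Between adult-titled Jung and adult Littman the difference in log2 fold change of Cdkn1a was -1.23 ± 0.402 (SE; interval -2.06 to -0.41, unadjusted edgeR p 0.00493), but with an adjusted p of 1.00 it was not called. In that fit 0 of 6256 genes were called (0%), with 174 at an unadjusted p under 0.05, and DESeq2 and limma-voom also called 0. Line, table and library set cannot be told apart in this comparison. Between adult-titled and BLZ-titled Jung 0 of 5540 genes were called by edgeR (0%), with 174 at an unadjusted p under 0.05, and the difference for Cdkn1a was 0.13 with an interval of -1.07 to 1.32.

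Between adult-titled and postnatal Jung 0 of 6585 genes were called by edgeR (0%), with 283 at an unadjusted p under 0.05. H2-D1 (GRCm38 chr17:35262730-35267499, plus strand) came nearest, with log2 fold changes of 0.02 in adult-titled Jung and 1.04 in postnatal Jung. The difference was -1.03 ± 0.262 (SE; interval -1.56 to -0.49), at an unadjusted edgeR p of 0.0004 and an adjusted p of 0.999. Whether it was called depended on 1 library and on the filter. Without oil replicate 3 the difference was -1.23 with an adjusted edgeR p of 0.0494, without the low-count filter the adjusted p was 0.0133, and without the 3 libraries that stood apart it was -1.26 with an adjusted p of 0.00109. For Cdkn1a the difference was -0.47 with an interval of -1.21 to 0.27.

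Because the labels conflict on BLZ945, the oil libraries were also compared between lines, once among the adult-titled and once among the BLZ-titled libraries. Adult-titled Jung oil against adult Littman oil gave 1 call among 6256 genes by edgeR (0.016%), with 333 at an unadjusted p under 0.05. The 1 called gene was Fkbp5 (GRCm38 chr17:28399094-28517527, minus strand), a co-chaperone of the glucocorticoid receptor that glucocorticoids induce. It had 240.1, 324, 322 and 174 CPM in adult-titled Jung oil replicates 1 to 4, against 103, 99.5, 104 and 66.6 CPM in adult Littman oil replicates 1 to 4. Every Jung value was above every Littman value, at a log2 difference of 1.48 ± 0.237 (SE; adjusted edgeR p 0.0083). The call was lost without any one of 4 libraries, while the log2 difference stayed at 1.34 to 1.49. The adjusted edgeR p was then 0.0825 and 0.0649 without Jung oil replicates 2 and 3, and 0.0565 and 0.110 without Littman oil replicates 2 and 4. Without the 3 Jung libraries that stood apart the log2 difference was 1.38, at an adjusted p of 0.107. Ddit4 had a larger log2 difference, 1.74 ± 0.405 (SE), but varied more among libraries and was not called, at an adjusted edgeR p of 0.389. It was called without Jung oil replicate 1 (log2 2.04, adjusted p 0.0162), without the 3 libraries that stood apart (log2 2.30, adjusted p 0.00177) and without the low-count filter (log2 1.73, adjusted p 9.4e-09). With tamoxifen, Fkbp5 had a log2 fold change over oil of -0.30 in adult-titled Jung (interval -0.76 to 0.16).

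BLZ-titled Jung oil against BLZ-titled Littman oil gave 471 calls among 5163 genes (9.12%), 124 higher and 347 lower in Jung. Of 29 tested type I interferon genes 27 were lower in BLZ-titled Jung oil, with a median log2 difference of -3.64, whereas between the adult-titled oil groups 0 of 10 were called, with a median of -0.0032. MHC class I genes were lower for 7 of 16 and disease-associated genes for 10 of 20 in the BLZ-titled libraries, against 0 in each list in the adult-titled ones. Of the 471 genes, 404 were tested in the adult-titled oil comparison, where 0 were called. Their median absolute log2 difference was 1.22 in the BLZ-titled and 0.218 in the adult-titled comparison, where all tested genes had 0.201, and 312 of the 404 had the same sign in both. For 361 of the 404 the adult-titled interval excluded the size seen in the BLZ-titled libraries. The 404 were selected by that same BLZ-titled difference, and its error was left out of this count. Neither the 312 nor the 361 was counted over all tested genes. The 312, the 361 and the median of 1.22 are therefore given as values only.

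**Figure D5:**
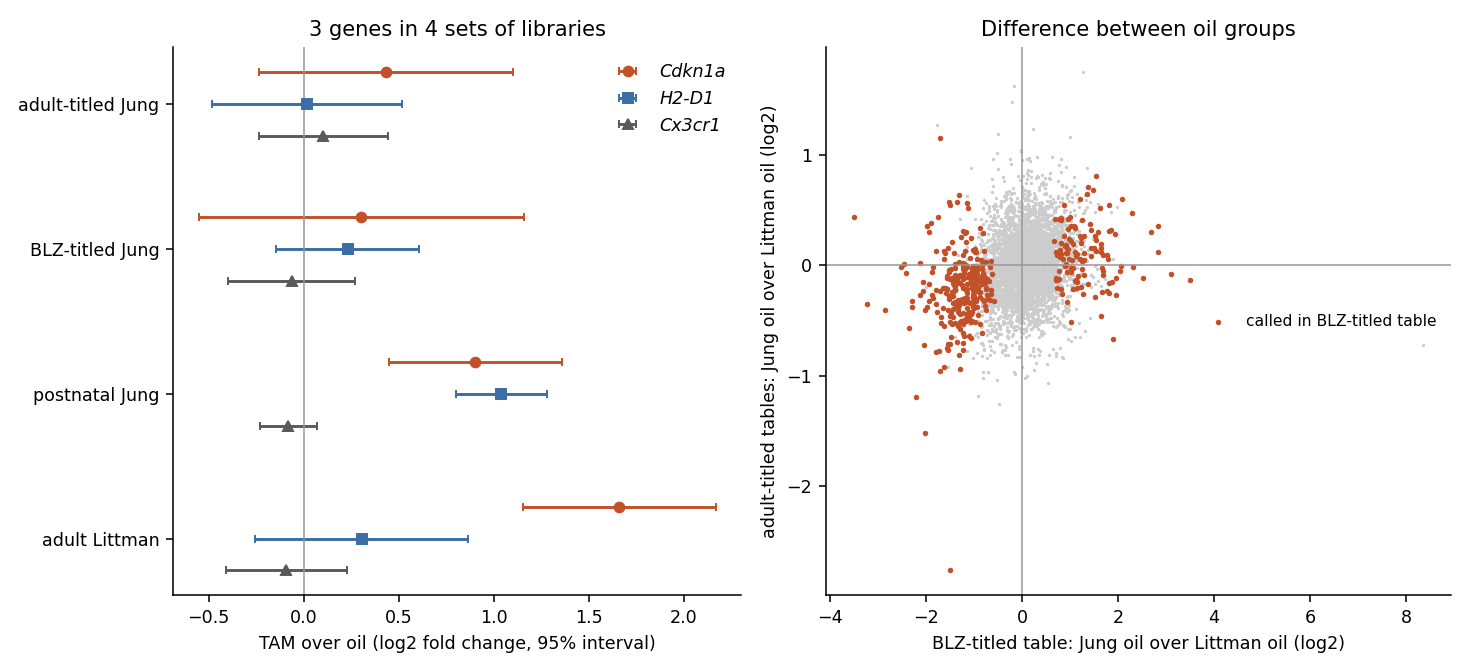
Left, log2 fold change of TAM over oil with 95% interval for Cdkn1a, H2-D1 and Cx3cr1 in 4 sets of libraries. Right, log2 difference of Jung oil over Littman oil in the adult-titled libraries against the same in the BLZ-titled libraries. Genes called in the BLZ-titled comparison are in orange. They spread widely on the BLZ-titled axis, by which they were chosen, and stay near 0 on the adult-titled axis.

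Levels of 2 genes illustrate where the adult-titled Jung libraries lie, with the caution that the tables were scaled separately and the levels were not tested. Ifitm3 ranged from 3.90 to 27.0 CPM in adult-titled Jung TAM and from 3.56 to 12.5 CPM in adult-titled Jung oil. In the BLZ-titled libraries, Ifitm3 ranged from 8.97 to 39.4 CPM in Jung oil and from 810.4 to 1088 CPM in Littman oil. H2-D1 ranged from 193 to 486 CPM in adult-titled Jung oil, from 662 to 816 CPM in BLZ-titled Jung oil and from 1653 to 2364 CPM in BLZ-titled Littman oil. Only the Littman set carries BLZ945 in both its titles and its treatment labels, and these values do not settle which Jung libraries came from mice given the drug.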

How the data were processed

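Whole-number gene counts per library, deposited by the authors without normalisation, were used as deposited for 17838 genes; no count column was left out. Per the submitters' processing notes, reads went through UMI-tools, Trim Galore, HISAT2 (build GRCm38) and featureCounts. Versions, strand setting, annotation and the handling of shared reads: not given in the sources used here. Reads of overlapping antisense genes may therefore not be told apart. Of the gene IDs 99.9% matched the GENCODE annotation of GRCm38 used for coordinates and biotypes. Groups followed the titles. Pairs of libraries of a group differed by more than sampling noise in their counts, which tells them apart as libraries but not as animals. Each was counted as 1 replicate.

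TAM was compared with oil in edgeR 4.0.16 (R 4.3.3): TMM factors, filterByExpr, the quasi-likelihood test and Benjamini-Hochberg adjustment over all tested genes, with calls at an adjusted p of 0.05. Differences between sets were interaction terms in joint fits of the counts. The scripts were tested on simulated counts. Alternatives were DESeq2 1.42.0, limma-voom (limma 3.58.1), other scaling, no low-count filter, each library left out, a replicate block, sex as a covariate and, chosen after seeing the data, TEC share covariates, leaving out 3 libraries and leaving out rRNA.

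Members and gene lists were chosen with earlier results of these data known. Genes named were Cx3cr1, Cdkn1a, Xist and Ddx3y; the 4 most abundant tested members of each list; the 8 highest and 8 lowest fold changes at an unadjusted p under 0.05 with at least 20 CPM in the higher group; the 8 most variable genes of at least 50 CPM; and genes called in other comparisons. Other list members, among them H2-D1, Jun, Tap1 and those given as counts, were chosen after their values were seen, as was Ddit4 for the oil comparison. Some genes that this rule names are not reported here.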

Additional observations from a re-analysis of the deposited data

Results flagged for a closer look

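In 27 of 232 groups of 4 libraries (11.6%), the highest or lowest library lay farther from the others than Dixon's 95% critical value allows; chance flags about 1 in 20. Many of them share a library, and the measures are not independent. Highest and lowest below mean within the TAM or the oil group.

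TAM replicate 1 was set apart in library measures and in microglial genes. Its TEC share was 1.79% of counts, its sense-intronic share 0.205%, its antisense share 0.697%, its ribosomal protein share 1.36% and its score on the first principal component 23.95. Among genes it was lowest for B2m (2825 CPM), the lysosomal protease gene Ctsb (1011 CPM), the Fc receptor gene Fcgr3 (1146 CPM) and mt-Cytb (2679 CPM). It was highest for Fam217b (109 CPM) and Gm5905 (710.1 CPM).

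The other TAM libraries gave fewer such values. TAM replicate 3 was lowest for Irf9 (81.9 CPM) and highest for Mospd3 (62.4 CPM), and TAM replicate 2 was highest for Fkbp5 (279 CPM).

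Oil replicate 4 stood apart in single genes. It was highest for the chaperone genes Calr (1175 CPM) and Pdia3 (706 CPM), for H2-K1 (419 CPM), Selplg (6563 CPM), Cd14 (805 CPM), Laptm5 (3790.3 CPM), mt-Nd4 (4189 CPM) and Bsg (336 CPM), and lowest for the transcription factor gene Mef2a (768 CPM). Oil replicate 1 was lowest in protein-coding share (81.6%), highest in rRNA share (9.32%) and highest for the cell cycle inhibitor gene Cdkn1b (420.2 CPM). Oil replicate 3 was lowest in mitochondrial rRNA share (2.01%).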

How the results depend on the processing

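Of 104 named genes and 1972 recomputed values in the tamoxifen comparison, 57 genes kept one sign throughout. Of the genes whose interval excluded 0, 1 changed sign: Gm5905, at -0.25 (adjusted p 1.00, edgeR) without TAM replicate 1 and oil replicates 1 and 3, an alternative chosen after seeing the data. The count of calls stayed at 0 under every alternative except no low-count filter, with 6, and TEC share and sex covariates together, with 1 (Gm5905). Among the 6 were Gm5905, Gm3756, H2-Aa, H2-Eb1 and Gm13339. At an unadjusted p under 0.05 the count was 89 to 390 with a library left out, the highest without TAM replicate 1, and 208 without the 3 libraries. Without the low-count filter the difference tests called 12 (adult Littman), 2 (BLZ-titled Jung) and 5 (postnatal Jung) genes, and the adult-titled oil comparison 8. With a library left out the postnatal difference called 0 to 1, the adult-titled oil comparison 0 to 2 and the BLZ-titled oil comparison 268 to 579. Without the 3 libraries the postnatal difference called 2. In deviations from group means, sex genes left out, same-numbered TAM and oil libraries correlated at 0.32, 0.11, -0.21 and 0.22. Not every library correlated best with its own number. These correlations also carry the differences in library quality, so they cannot decide whether the numbers pair the libraries. The replicate block gave 0 calls and 153 at an unadjusted p under 0.05 in the tamoxifen comparison, and 1 call (Ddx3y) in the adult line difference. A block could not be fitted for the oil comparisons. The causes of these shifts were not tested. Depth limits genes under about 20 CPM, which have a few counts per library.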
